A study of Mus musculus with 42 samples.

Results

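The genes described here are the ligands and receptors that steer axons: the semaphorins with their plexin and neuropilin receptors, the ephrins with the Eph receptors, the Slits with the Robo receptors, and the netrins with Dcc and the Unc5 receptors. They were chosen by name alone, as every gene whose symbol in the array annotation begins with one of these family names. This gave 71 of the 18194 genes measured, of which 35 encode ligands and 33 encode receptors. The remaining 3, Unc50, Unc5cl and Plxna4os1, matched by spelling only and are neither, so that 68 members belong to the pathway itself.

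The study profiled single cells picked from dissociated mouse retinas, 1 cell per array, and asked how much individual retinal progenitor cells differ from one another as the retina forms. The 42 cells came from retinas that carried no described mutation or treatment: 11 were taken at embryonic day 12.5 (E12.5), 4 at E13.5, 2 at E14.5, a single one at E15.5, 11 at E16.5 and 13 on the day of birth (P0). The comparisons use the main stages E12.5, E16.5 and P0, and values for the main stages are given in that order. The labels gave the background strain CD1 for 37 cells and no strain for the other 5. The cells were called progenitors after the fact from their own expression profiles, which limits them as a sample of any stage. E14.5 B1 and E16.5 F1 are among the cells that the study placed on the way to becoming neurons. The labels name no animal or litter, so each stage counts as 1 sample: cells are shown individually, no p-value is given, and every interval covers counting error only.

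Guidance cues are read by receptors on the growth cone, the motile tip of a growing axon. In the retina, netrin released at the optic disc draws ganglion cell axons that carry Dcc out of the eye, Slits acting on Robo receptors keep these axons in their layer, ephrins and Eph receptors are spread in gradients that give an axon its address in the brain, and the class 5 semaphorins confine neurites to the inner retina through A-type plexins. Several of the same proteins are also made by dividing neuroepithelial cells, where Eph and plexin signals act on cell contact and shape.

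A gene was called present in a cell when the highest MAS5 signal among its probe sets, the groups of array probes designed against it, reached 1000. A signal below that limit is not evidence that the transcript was missing. Probe sets differ in sensitivity, so signals are compared between cells for the same gene and never between genes, and the number of cells in which a gene was found also depends on its probes.

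Guidance genes were found sparsely and in different combinations from cell to cell. Of the 71 members, 55 (77.5%) were present in at least 1 cell, against a background of 72.6% of all genes. No member was present in all 42 cells, 2 were present in over 50% of them, 14 in 10 or more, 31 in 2 to 9, 10 in a single cell and 16 in none. Taken as member and cell combinations, 348 of 2982 (11.7%) were present, below the 17% of all gene and cell combinations. The median member was present in 2 cells and the median gene in 3. Of the 348 values, 138 lay between 1000 and 2000 and 92 reached 5000.

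**Figure D1:**
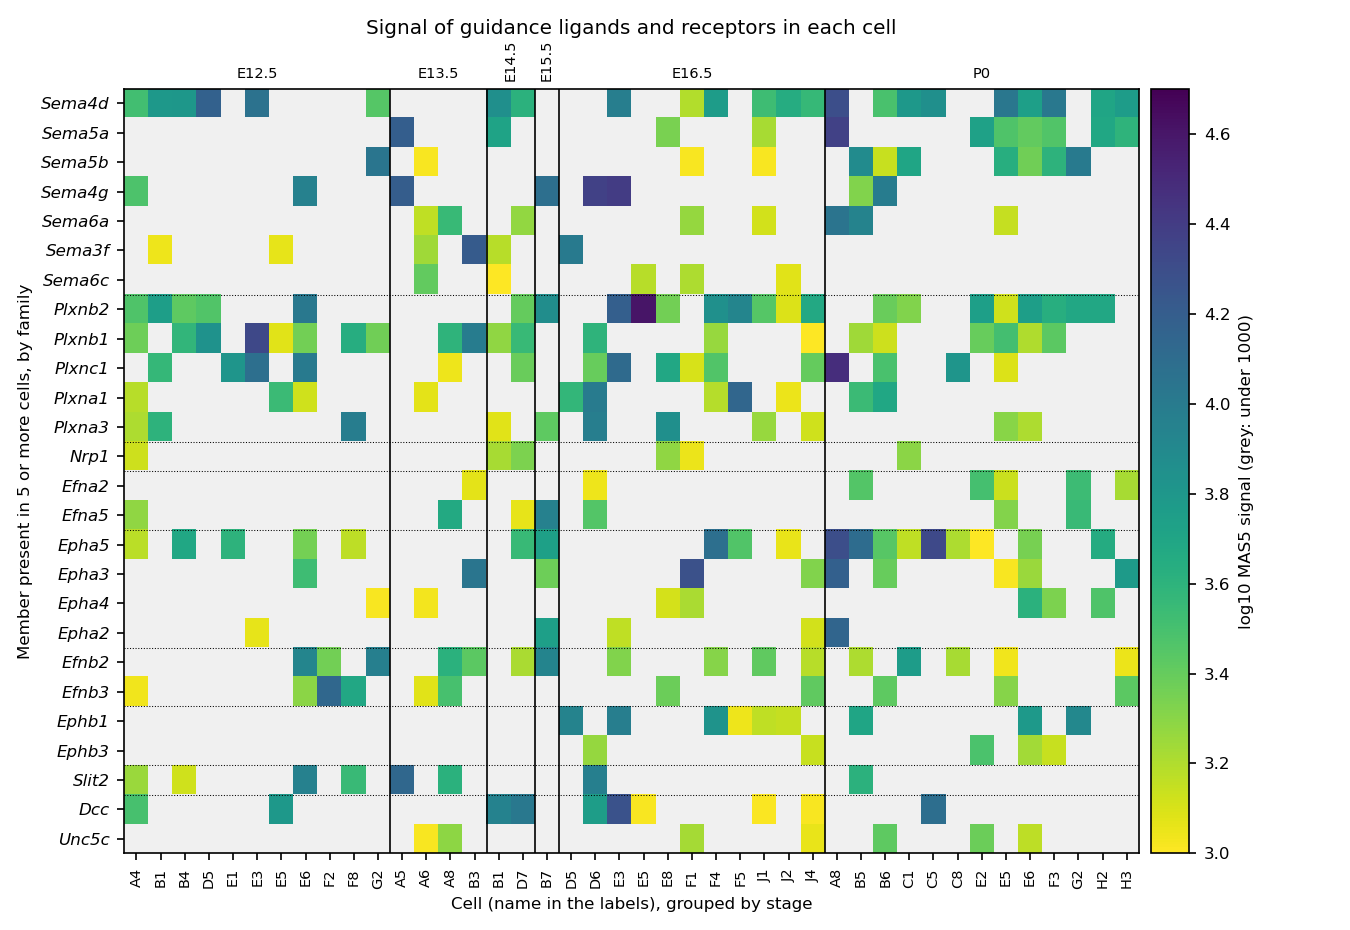
MAS5 signal, as log10, of each member present in 5 or more cells (rows, grouped by family and separated by dotted lines) in each of the 42 cells (columns, grouped by stage), with signals under 1000 in grey. Colours are to be compared along a row and not between rows; Sema4d and Plxnb2 fill 23 cells each, and Ephb1 is grey in all 18 cells before E16.5.

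Each cell held between 3 and 22 of the members, with a median of 7.5. The range was 3 to 12, 3 to 22 and 3 to 15 at the main stages, so the stages overlapped throughout. The 4 cells of E13.5 held 5, 6, 10 and 14 members, the 2 of E14.5 held 9 and 10, and the cell of E15.5 held 11. Cells with more genes present also held more members. Over the 42 cells, which share an amplification and an array type, Pearson's r between the counts was 0.706 and Spearman's rho 0.699, and r was 0.637 without the 2 cells farthest from the median number of genes. As a share of the genes present in a cell, members made up 0.12% to 0.538%.

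**Figure D2:**
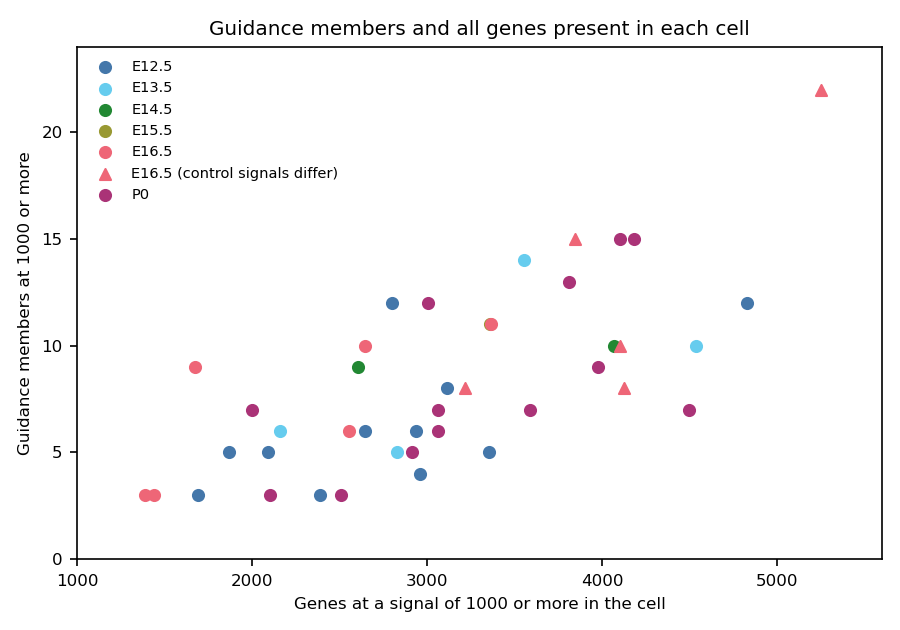
Number of guidance members (vertical axis) against the number of all genes at a signal of 1000 or more (horizontal axis) in each of the 42 cells, coloured by stage, with triangles for the 5 E16.5 arrays whose control signals differed. The cell with the most genes, E16.5 F1 with 5253, also held the most members, 22.

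Some properties of the arrays bear on these counts. On 5 of the 11 E16.5 arrays (E8, F1, J1, J2 and J4) the spiked hybridization controls followed another pattern, deviating from the common one by 0.644 to 0.667 (SD of log2 signals), while none of the remaining 37 arrays passed 0.197. These 5 arrays also had more genes present (3217 to 5253, against 1386 to 3367 on the other E16.5 arrays) and a higher median signal over all probe sets (216 to 293, against 27.2 to 114). Of their 63 member values, 71.4% lay under 2000, compared with 26.2% of the 42 values on the other 6. The E16.5 differences of members and the main E16.5 counts below are therefore also given for the other 6 arrays. Medians and ranges of E16.5 signals rest on all 11 arrays, as do counts of other pathway genes that differed between stages. Without the 5 arrays 51 of the 71 members were found in at least 1 cell. Of 13 progenitor markers measured, 3 to 12 were present in each cell. Of 14 ganglion cell markers, 0 to 10 were present, with a summed signal of 1317 to 38021, 3776 to 141293 and 948 to 81868 at the main stages, and Thy1 was present in no cell. Of 10 amacrine markers, 0 to 6 were present, with a summed signal of 701 to 23092, 2248 to 41984 and 983 to 30110 at the same stages and no cell with Neurod6. Photoreceptor markers numbered 0 to 5 of 9, endothelial 0 to 3 of 8, pigment epithelium 0 to 2 of 7, microglial 0 to 2 of 6, astrocyte 0 to 2 of 4 and horizontal cell 0 to 1 of 5 per cell. Cdh5, Tie1 and Emcn of endothelium, Tyr, Rpe65 and Mlana of pigment epithelium, and Csf1r, Aif1, Tyrobp and C1qa of microglia were present in none. Kdr, which retinal progenitors are known to express too, was the exception among endothelial markers, with 25 cells. E13.5 A6 was not among the 5 arrays, but its median signal over all probe sets was 216. That was the highest of the other 37 arrays, whose median was 44.9. Its ganglion cell markers had the highest summed signal of the 42 cells, 382876, and it held 2 of the 6 microglial markers. Its 14 members are counted below with those of the other cells.

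The families differed in how often they were found. Plexins were present in 23.5% of their gene and cell combinations (95% exact interval 19.4% to 28.2%) and B-ephrins in 23.8% (16.7% to 32.2%). A-type Eph receptors followed with 13.2% (9.98% to 17.1%) and semaphorins with 10.7% (8.7% to 13%). Netrin receptors stood at 9.05%, B-type Eph receptors at 8.93%, A-ephrins at 8.57%, neuropilins at 8.33% and Slits at 7.94%. Robo receptors, at 2.38%, and netrins, at 1.79%, were the families found least. Receptors as a whole were present in 13.3% of combinations (11.5% to 15.2%) and ligands in 10.3% (8.77% to 11.9%). The plexin share came mainly from Plxnb2, Plxnb1 and Plxnc1, with 23, 21 and 16 cells, while Plxna4 and Plxnb3 were present in 0. These shares pool genes with unlike probes, and neither the values of 1 cell nor those of 1 gene are independent. The intervals therefore do not show whether a family as such differs from all genes.

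**Figure D3:**
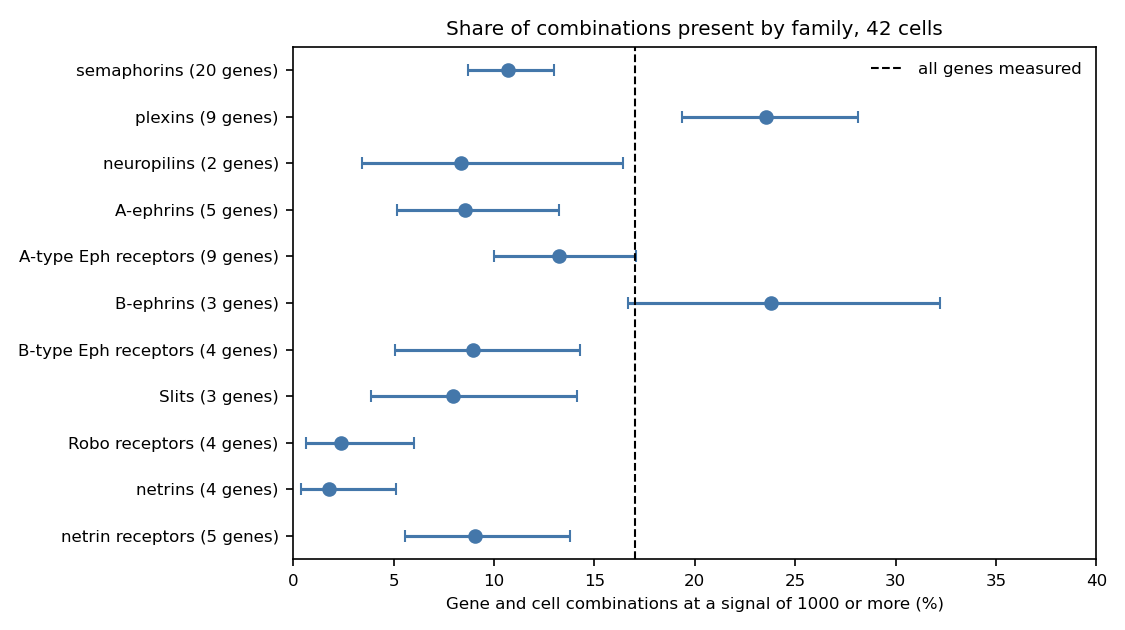
Share of gene and cell combinations at a signal of 1000 or more for each of the 11 families over the 42 cells (points), with exact 95% intervals (bars) and the share over all genes measured (dashed line, 17%). The interval of the plexins lies above the line, that of the B-ephrins crosses it, and those of the netrins and Robo receptors lie farthest below.

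Among the semaphorins, Sema4d, a membrane-bound cue read by B-type plexins, was present in the most cells, 23 of 42 (54.8%, interval 38.7% to 70.2%). Its signal ran from 29.5 to 14830 at E12.5 with a median of 2803, from 79.3 to 9351 at E16.5 with a median of 1580, and from 59.5 to 19715 at P0 with a median of 5488. The E16.5 median is the value of F1, and on the 6 other arrays the signals were 79.3, 208.9, 209.5, 335, 5784 and 9351. It was present in 6 of 11, 6 of 11 (2 of the 6 other arrays) and 9 of 13 cells at these stages, in both E14.5 cells and in none of the 4 E13.5 cells. High and low Sema4d signals thus stood side by side at each of the 3 main stages. Sema5a and Sema5b, the class 5 cues, were each present in 11 cells. Sema4g, another class 4 semaphorin, was present in 8 cells with a median signal of 10803 in them, from 2 cells each at E12.5, E16.5 and P0 and 1 each at E13.5 and E15.5. Sema6a, a class 6 semaphorin that binds A-type plexins, was present in 8 cells, Sema3f in 6 and Sema6c in 5. The others were found in 3 cells (Sema3a, Sema3e, Sema4f), 2 cells (Sema3c, Sema6b, Sema6d), 1 cell (Sema3g, Sema4a, Sema4b) or none (Sema3b, Sema3d, Sema4c, Sema7a).

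Plexins, the receptors of semaphorins, supplied 5 of the 14 members found in 10 or more cells. Plxnb2, a B-type plexin also used by dividing neural cells, was present in 23 of 42 cells (54.8%). Its signal ran from 11.2 to 10499, from 14.3 to 40267 and from 14.3 to 5548 at the main stages, with medians of 631.5, 2819 and 2085. On the 6 other E16.5 arrays its signals were 14.3, 70, 7059, 8408, 15332 and 40267. It passed 1000 in 5 of 11, 8 of 11 (4 of the 6 other arrays) and 8 of 13 cells, with no E13.5 cell among the positive ones. Plxnb1, the closest receptor for Sema4d, was present in 21 cells (50%, interval 34.2% to 65.8%). Plxnc1, the receptor for Sema7a, was present in 16 cells, of which 4, 6 (3 of them on the 6 other arrays) and 4 were of the main stages. Plxna1 and Plxna3, A-type plexins used by class 3 semaphorins through neuropilins and by class 5 semaphorins directly, were present in 11 cells each. Plxna2 was present in 4 cells, Plxnd1 in 3, and Plxna4 and Plxnb3 in none. The neuropilins, which bind class 3 semaphorins on behalf of plexins, were rare: Nrp1 was present in 6 cells, including both E14.5 cells, and Nrp2 in 1.

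Among the ephrins, Efnb2, which marks the dorsal retina, was present in 16 of 42 cells (38.1%, interval 23.6% to 54.4%). It was present in 3 of 11, 4 of 11 (2 of the 6 other arrays) and 5 of 13 cells of the main stages, with highest signals of 9183, 2613 and 5770. Efnb3 was present in 11 cells, 4, 2 (0 on the 6 other arrays) and 3 at those stages, and Efnb1 in 3. The A-ephrins, membrane cues anchored by a lipid tail, were found less often: Efna2 and Efna5 in 7 cells each, Efna3 and Efna4 in 2 each and Efna1 in none.

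Of the Eph receptors, Epha5 was present in 19 of 42 cells (45.2%, interval 29.8% to 61.3%) and Epha3 in 10 (23.8%). Both bind A-ephrins. Epha3 was present in 1 of 11, 2 of 11 (0 of the 6 other arrays) and 5 of 13 cells of the main stages, and its signal reached 3348, 18917 and 15103 at these stages. Epha5 and Epha3 were present together in 5 cells. Epha4 was present in 7 cells, Epha2 in 5, Epha7 in 3, Epha1 and Epha8 in 2 each, and Epha6 and Epha10 only in the single E15.5 cell, which held 5 A-type receptors. Of the B-type receptors measured here, Ephb1 was present in 9 cells, Ephb3 in 5, Ephb4 in 1 and Ephb6 in none. Ephb2 was not among the genes measured, so every count of B-type receptors leaves it out.

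Slit2, a secreted repellent, was present in 8 of 42 cells (19%, interval 8.6% to 34.1%), and 6 of these came from E12.5 and E13.5. Its highest signals were 13500 in E13.5 A5, 9281 in E16.5 D6 and 9035 in E12.5 E6. Slit1 was present in 2 cells and Slit3 in none. The Robo receptors were almost absent from the calls, with Robo3 in 3 cells, Robo2 in 1, and Robo1 and Robo4 in none. Netrins were as rare: Ntn1 passed 1000 in 2 E13.5 cells, A5 with 15668 and A6 with 1009, and Ntn5 in 1 cell, while Ntn3 and Ntn4 passed it in none. E13.5 A5, which was singled out after its values were seen, held Ntn1, Slit2, Sema5a, Sema4g and Sema6d and no guidance receptor at 1000. The same cell held 7 of 13 progenitor markers and 2 of 7 pigment epithelium markers. Its summed signal of the latter, 29749, was the highest of the 42 cells, where the median was 426. The part of pigment epithelium transcripts in its profile was not tested.

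Dcc, the netrin receptor that attracts axons, was present in 10 of 42 cells (23.8%, interval 12.1% to 39.5%). Its signals in the positive cells were 3125 and 6176 at E12.5, 8818 and 10525 at E14.5, 1018, 1039, 1040, 5705 and 18652 at E16.5 and 12106 at P0. Both E14.5 cells were thus positive. The 3 lowest values came from a probe set that passed 1000 in no other cell, so that the other E16.5 values of Dcc rest on 2 cells. In the 10 positive cells, 0 to 9 of the 14 ganglion cell markers were present, with a median of 3, and the part of these markers in the result was not tested. Unc5c, a receptor that turns netrin into a repellent, was present in 7 cells, Unc5b in 2, and Unc5a and Unc5d in none. Unc50, which is no netrin receptor, was present in 12 cells and Plxna4os1 in 1.

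The 16 members found in no cell reached highest signals of 160 (Ntn3) to 925 (Unc5cl), so that several stayed just below the limit. At a limit of 500, 67 of the 71 members were found in at least 1 cell. A gene with several probe sets was rarely called by more than 1 of them. Of the 271 present values of the 46 members with several probe sets, 22.9% were present by 2 or more.

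The stages were compared by the share of cells in which each member was present, and a difference of 30 percentage points or more was described. Between E12.5 and P0, 3 of 71 members (4.23%) were present in a larger share of cells at P0, near the background of 4.73% of all genes, and 0 in a smaller share, against a background of 1.52%. No p-value was computed, as each stage is 1 sample. Between E12.5 and E16.5, 1 member was higher (background 2%) and 1 lower (background 2.03%) at E16.5. Between E16.5 and P0, 3 members were higher at P0 (4.23%, background 5.05%) and 3 lower (4.23%, background 1.74%). As a group, then, the members passed the limit about as often as other genes, apart from the last count, and the median difference over the 71 members was 0 points in each comparison, as over all genes. The members past the limit are described one by one because their roles differ. They were picked by the size of these differences, so their intervals are not a test of them.

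**Figure D4:**
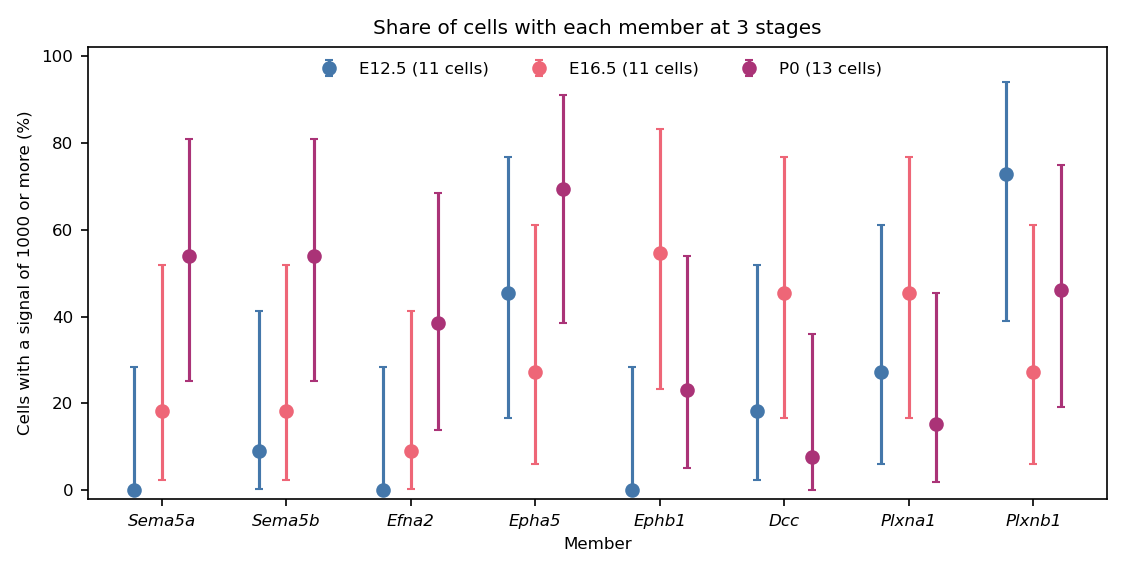
Share of cells in which the signal reached 1000 (points) in the 11 cells of E12.5, the 11 of E16.5 and the 13 of P0, for the 8 members that differed by 30 points or more in any comparison, with exact 95% intervals (bars, counting error only). Sema5a, Sema5b and Efna2 are highest at P0, Ephb1, Dcc and Plxna1 at E16.5 and Plxnb1 at E12.5, and most intervals overlap.

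Sema5a was present in 0 of 11, 2 of 11 and 7 of 13 cells of the main stages. Its signal ran from 59.7 to 231 with a median of 109.9 at E12.5, from 6.07 to 2202 with a median of 169 at E16.5, and from 9.07 to 23360 with a median of 2543 at P0. No E12.5 cell passed 231, while 7 of the P0 cells lay at 2543 or more and the other 6 under 1000. The difference between P0 and E12.5 was 53.8 points (95% interval 18.1 to 76.8), and the exact interval of 0 in 11 cells itself reaches 28.5%. Between P0 and E16.5 it was 35.7 points (-2.82 to 62.1), and since both positive E16.5 cells (E8 and J1) were among the 5 arrays set apart, none of the other 6 was positive and the difference without those arrays was 53.8 points. At a limit of 500 it was 26.6 points.

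Sema5b was present in 1 of 11, 2 of 11 and 7 of 13 cells at the same stages. Its signal ran from 11.2 to 10901, from 103.9 to 1041 and from 57 to 10196, with medians of 118, 378 and 1384. The single E12.5 cell, G2, had the highest signal of all, and both positive E16.5 cells (F1 with 1041 and J1 with 1032) were on the arrays set apart. The difference between P0 and E12.5 was 44.8 points (6.93 to 68.9) and that between P0 and E16.5 35.7 points (-2.82 to 62.1), or 53.8 points without the arrays set apart. The first was 28 points with the 3000 highest genes of each cell, and the second 8.39 points at a limit of 500. At P0 either class 5 semaphorin was present in 11 of 13 cells, and 3 of these held both. Whether the presence of 1 was related to that of the other was not tested. The 2 probe sets of Sema5b passed 1000 in 6 and 7 P0 cells, and 1 of the 4 probe sets of Sema5a passed it in all 11 of the cells counted.

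The promoters of Sema5a, Sema5b and Ephb1 are shown because, of all members, they exceeded their E12.5 share by the most points, having been seen in 1 or no E12.5 cell and in several later ones. Each window spans 250 bases before to 50 after the transcription start (RefSeq, GRCm38.p6), is written from 5′ to 3′ along the gene, and has its CG dinucleotides in capitals. Sema5a lies at chr15:32244563-32244862 on the + strand, Sema5b at chr16:35541112-35541411 on the + strand and Ephb1 at chr9:102354644-102354943 on the - strand.
Sema5a: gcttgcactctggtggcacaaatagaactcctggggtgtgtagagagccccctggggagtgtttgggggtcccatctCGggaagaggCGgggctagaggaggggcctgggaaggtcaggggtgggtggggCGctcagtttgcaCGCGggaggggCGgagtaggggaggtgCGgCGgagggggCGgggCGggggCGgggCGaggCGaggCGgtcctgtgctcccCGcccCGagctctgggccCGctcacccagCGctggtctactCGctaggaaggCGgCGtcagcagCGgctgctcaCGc
Sema5b: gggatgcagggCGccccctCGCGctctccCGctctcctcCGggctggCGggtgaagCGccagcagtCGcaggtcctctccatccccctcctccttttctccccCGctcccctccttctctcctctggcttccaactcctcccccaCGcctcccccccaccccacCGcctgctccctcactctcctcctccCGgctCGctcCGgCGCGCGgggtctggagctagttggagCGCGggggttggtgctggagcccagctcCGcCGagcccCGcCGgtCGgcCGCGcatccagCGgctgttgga
Ephb1: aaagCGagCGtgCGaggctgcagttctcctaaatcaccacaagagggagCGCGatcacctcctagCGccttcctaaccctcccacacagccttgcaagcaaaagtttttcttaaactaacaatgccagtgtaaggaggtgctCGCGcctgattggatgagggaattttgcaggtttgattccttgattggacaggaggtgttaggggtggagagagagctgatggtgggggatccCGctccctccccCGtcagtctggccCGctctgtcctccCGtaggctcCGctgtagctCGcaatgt
The 3 windows hold 23, 27 and 14 CG dinucleotides, where the median promoter of the genes measured holds 16, and their GC contents are 71.3%, 73% and 55.7%. RefSeq promoters were found for 60 of the 71 members, 76 windows in all, with a median of 18.5 CG dinucleotides. Letters of 4 motifs were searched on both strands. The GC box GGGCGG, read by Sp1-like factors, stood 5 times in the Sema5a window, where some copies overlap, and in neither of the others. It was held by 72.4% of member windows, 52.3% of those of measured genes and 35.7% of all promoters. The median GC content ran in the same order, with 64.2%, 58.3% and 52.7%, and the motif consists of G and C only. The part of base content in these GC box shares was not tested. TAATTA, the core read by many homeodomain factors, was in 3.95% of member windows, between the 3.41% of measured genes and the 5.29% of all promoters. CAGCTG, an E-box, was in 15.8% (16.4% of measured genes, 16.3% of all) and TGGGAA, the core read by RBPJ, in 22.4% (24.2% of measured genes, 25.6% of all). The Sema5a window holds 1 TGGGAA, and none of the 3 windows holds TAATTA or CAGCTG. A match is a description of letters and not a binding site.

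Efna2, an A-ephrin that repels temporal axons, was present in 0 of 11, 1 of 11 and 5 of 13 cells of the main stages. Its highest signals were 563, 1100 and 3426, and the medians 214, 493 and 238. Its P0 median was therefore no higher than that of E16.5, and the stage difference lay in 5 P0 cells with 1361 to 3426. The difference between P0 and E12.5 was 38.5 points (5.29 to 64.5). It was under 30 points when a signal of 500, 2000 or 5000 was required, or when the 3000 highest genes of each cell were counted as present, with 29.4, 23.1, 0 and 21.7 points.

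Epha5, a receptor for A-ephrins including Efna2, was present in 5 of 11, 3 of 11 and 9 of 13 cells of the main stages. Its signal ran from 55.2 to 4869, from 28.1 to 11992 and from 36.8 to 21096, with medians of 132, 493 and 1628. The difference between P0 and E16.5 was 42 points (2.21 to 67.1). It was 35.9 points without the 5 arrays set apart, when 2 of the 6 remaining E16.5 cells were positive. With 1 probe set in place of the highest of 4 it was 12.6 points, and at a limit of 2000 it was 28 points. Between P0 and E12.5 the shares differed by 23.8 points (-14 to 54), which missed the limit.

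Ephb1, a B-ephrin receptor that in ganglion cells directs axons to the same side of the brain, was present in 0 of 11, 6 of 11 and 3 of 13 cells of the main stages. The 6 E16.5 signals were 1108, 1405, 1445, 6728, 8740 and 9327, and those at P0 were 4985, 6013 and 8077. No E12.5 cell passed 486, and none of the 7 cells of E13.5 to E15.5 reached 1000. The difference between E16.5 and E12.5 was 54.5 points (17.5 to 78.7) and 66.7 points without the 5 arrays, when 4 of 6 cells were positive. At a limit of 2000 it was 27.3 points. The difference of P0 from E16.5 was -31.5 points (-59.9 to 6.52), or -43.6 points without the 5 arrays and -4.2 points at a limit of 2000. In the 9 positive cells 6 to 12 progenitor markers and 0 to 7 ganglion cell markers were present, the latter with a median of 3. The part of ganglion cell transcripts in the Ephb1 result was not tested. B-ephrins, its ligands, were present in 5 of 11, 6 of 11 and 6 of 13 cells at the 3 stages.

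Plxnb1 showed the opposite order. It was present in 8 of 11, 3 of 11 and 6 of 13 cells of the main stages. Its signal ran from 88 to 21481, from 85.4 to 3945 and from 54.9 to 3205, with medians of 2319, 817 and 260. The difference of E16.5 from E12.5 was -45.5 points (-70.2 to -4.03), and -39.4 points without the 5 arrays. At a limit of 500 it was -9.09 points, where the E16.5 median of 817 counts as present. The difference of P0 from E12.5, -26.6 points (-55.4 to 11.7), missed the limit.

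Dcc and Plxna1 were each present in 5 of 11 cells at E16.5. Dcc was present in 1 of 13 cells at P0, a difference of -37.8 points (-65 to -2.53). With 3 of the 5 E16.5 cells at 1018 to 1040, this difference was -10.5 points at a limit of 2000 and with 1 probe set per gene. Plxna1 was present in 2 of 13 cells at P0, a difference of -30.1 points (-58.8 to 6.07). Its E16.5 signals were 1117, 1547, 3762, 9772 and 13853, and those at P0 3464 and 4897. At a limit of 2000 this difference was -11.9 points. Of the positive E16.5 cells, 3 of 5 for Dcc and 4 of 5 for Plxna1 were outside the arrays set apart, and without these the differences were -42.3 and -51.3 points. Without those arrays, 4 members were higher and 2 lower at E16.5 than at E12.5 (of all genes, 2.25% were then higher and 6.03% lower), while 5 were higher (10% of all genes) and 3 lower (1.28%) at P0 than at E16.5.

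Ligands and receptors of the same class were sought in the same cell, since a cell that makes both can signal to itself or mask its own receptor. Class 4 semaphorins and B- or D-type plexins were present together in 23 of 42 cells, with 7 of 11, 6 of 11 and 7 of 13 of them at the main stages. This rested mainly on Sema4d, which shared 16 of the 23 cells of Plxnb2 and 13 of the 21 of Plxnb1. Of the 23 cells with Sema4d, 19 held Plxnb1 or Plxnb2, and all 6 Sema4d cells of E12.5 did. Class 5 and 6 semaphorins met A-type plexins in 10 cells, of which 0, 3 and 5 were of the main stages. At E12.5, 5 cells held an A-type plexin and 1 held a class 5 or 6 semaphorin, whereas at P0 the numbers were 5 and 11, and each P0 cell with such a plexin also held such a semaphorin. A-ephrins met A-type Eph receptors in 10 cells, of which 4 were at P0. B-ephrins met B-type Eph receptors in 6 cells, 4 of them at E16.5. At E12.5 they met in none, as 5 cells held a B-ephrin and 0 held any of the 4 B-type receptors measured, which do not include Ephb2. Class 3 semaphorins and neuropilins shared 2 cells, and netrins and their receptors 2. Slits and Robo receptors were present in 9 and 4 cells and shared 0, and 3 of the 4 Robo cells held Robo3 and 1 held Robo2. On the 6 other E16.5 arrays, class 4 semaphorins met B- or D-type plexins in 3 cells and B-ephrins met B-type Eph receptors in 2, and no other class met its receptors there. Sema7a was present in no cell while its receptor Plxnc1 was present in 16. In all, 71.4% of cells held a matching ligand and receptor of at least 1 class, and 67.6% of the 37 cells outside the arrays set apart. Frequent genes meet often whatever their roles, and whether these numbers exceed that was not tested.

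**Figure D5:**
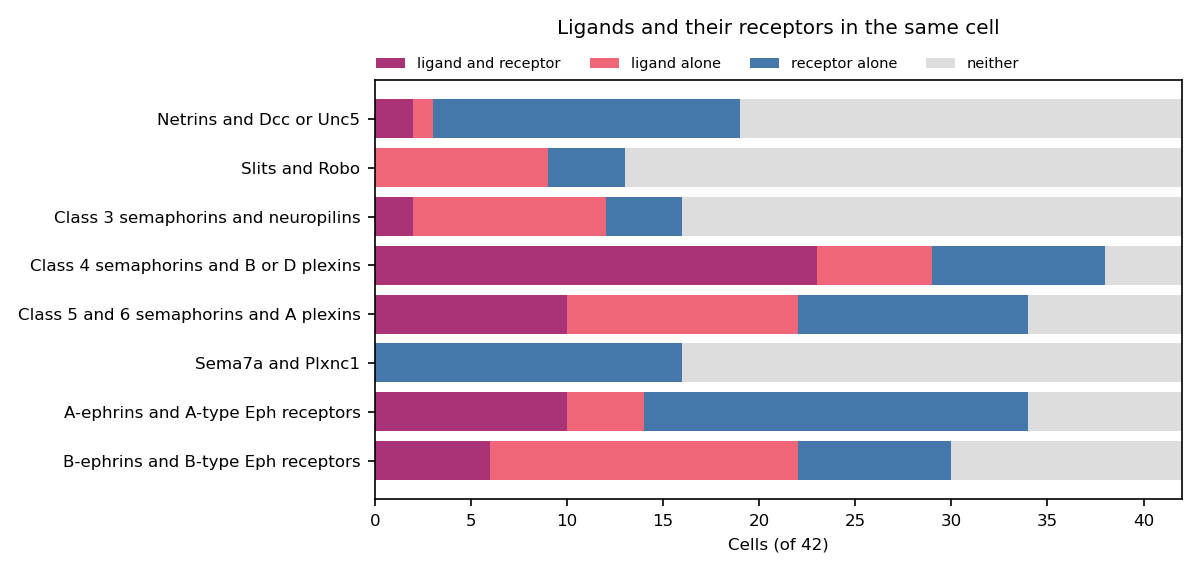
Number of the 42 cells in which a ligand and a receptor of the same class were both at a signal of 1000 or more, or the ligand alone, the receptor alone or neither, for 8 classes (stacked bars that sum to 42). Class 4 semaphorins with B or D plexins were found together in 23 cells, and Slits with Robo receptors in 0.

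Cells of the same stage held largely different sets of members. The Jaccard index, the number of members 2 cells share over the number either holds, had a median of 0.133 over the 55 pairs of E12.5 cells, 0.133 over the 55 of E16.5 and 0.194 over the 78 of P0. For all genes the medians were 0.287, 0.221 and 0.335. Of these pairs, 9, 4 and 4 shared no member. Over the 15 pairs of the 6 other E16.5 cells the medians were 0.167 for members and 0.2004 for all genes. The index is lower for genes found in fewer cells, and members were present in 11.7% of combinations against 17% for all genes. Whether the members differed between cells beyond this was not tested. Among the members present in 5 or more cells, Sema4d and Plxnb2 overlapped most (index 0.533). They were also the 2 members found in the most cells, 23 each. Sema4g and Slit2 followed, which shared 5 of the 11 cells that held either, and then Plxnb2 and Epha5, with 13 shared cells.

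Genes that act with the members were counted from lists. Among 34 other cues and co-receptors, 33 were present in at least 1 cell, with 22.8% of combinations present. Between E12.5 and P0, 2 of them were higher at P0 (background 4.73% of all genes): Cntn1, an adhesion protein of axons, went from 1 of 11 to 9 of 13 cells, and Omg, a myelin-associated inhibitor, from 0 of 11 to 4 of 13. Neo1, a netrin and RGM receptor related to Dcc, and Ryk, a Wnt receptor, were each found in 7 of 11 E12.5 cells. At E16.5 each was found in 2 of 11 cells, of which 0 and 1 were on the 6 other arrays. Neo1 and Ryk were the 2 genes of this list lower at E16.5 than at E12.5 (background 2.03% of all genes, or 6.03% without the arrays set apart). Neo1 was present in 17 cells in all, against 10 for Dcc. Sdc3, a heparan sulfate carrier, was present in 6 of 11 cells at E16.5, 5 of them on the arrays set apart, and in 2 of 13 at P0. The median gene of this list was present in 5 cells and the median of all genes was 3 cells. The part of this in the counts set against backgrounds was not tested.

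Of 49 intracellular effectors measured, 47 were present in at least 1 cell, with 37% of combinations present, above the 22.8% of the other cues and co-receptors. The median effector was present in 13 cells and the median of all genes was 3 cells. A gene found in few or no cells cannot reach the limit on stage differences, so backgrounds over all genes are no like comparison for effectors. Whether effectors differed more often than other genes found in as many cells was not tested. Between E12.5 and P0, 9 effectors were higher at P0 (background 4.73%) and 1 lower (1.52%). The largest difference was that of Srgap2, a Slit-Robo effector that shapes membranes, with 1 of 11 and 10 of 13 cells (67.8 points). Dpysl4, a collapsin response mediator, was present in 5 of 11 and 12 of 13 cells, and Limk2, a kinase that stabilises actin, in 1 of 11 and 7 of 13. Fyn, a kinase used by Eph and netrin receptors, went the other way with 7 of 11, 8 of 11 (4 of the 6 other arrays) and 3 of 13 cells. Between E12.5 and E16.5, 4 effectors were higher (background 2%) and 0 lower (2.03%), Dpysl4 foremost with 10 of 11 cells at E16.5 (5 of the 6 other arrays). Between E16.5 and P0, 4 were higher (background 5.05%) and 2 lower (1.74%), the lower ones being Fyn and Mical1, an actin oxidase used by plexins. The effector counts of these 2 comparisons use all 11 E16.5 arrays. Without the arrays set apart the backgrounds were 2.25% higher and 6.03% lower at E16.5 than at E12.5. Those of P0 against E16.5 were then 10% higher and 1.28% lower. Many of these proteins serve other pathways as well.

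Of 18 genes that pattern the retina along its axes, 15 were present in at least 1 cell. Nr2f1 was present in 22 cells, Aldh1a3 in 19, Aldh1a1 in 18, Zic1 in 17, Tbx2 in 16, Cyp26a1 in 11, Nr2f2 in 10, Vax2 in 7, Vax1 and Zic2 in 6 each and Tbx3 in 5. Aldh1a1, which makes retinoic acid dorsally, was present in 7 of 11, 2 of 11 (0 of the 6 other arrays) and 4 of 13 cells of the main stages, and Zic1 in 6, 5 (2 on the 6 other arrays) and 2 cells. Cyp26a1, which degrades retinoic acid, was found in 5 E12.5 cells but in 0 E16.5 cells. Of the 18 genes, 2 were lower at E16.5 than at E12.5 (background 2.03% of all genes, or 6.03% without the arrays set apart). At P0, 2 were lower than at E12.5 (background 1.52%) and 1 lower than at E16.5 (1.74%), and 0 were higher in any comparison. The median gene of this list was present in 6 cells and the median of all genes was 3 cells. The part of this in the counts set against backgrounds was not tested. Efnb2 shared 8 of its 16 cells with Tbx2, which acts dorsally, and 3 with Vax2, which acts ventrally. Efnb3 shared 7 and 2 of its 11 cells with the same genes. Tbx2 was present in 16 cells and Vax2 in 7, so these overlaps are not of like size to begin with.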

How the data were processed

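Single cells were picked from papain-dissociated mouse retinas, their RNA was reverse transcribed from an oligo dT primer, amplified by 35 PCR cycles, labeled and hybridized to Affymetrix 430 2.0 arrays, 1 cell per array. The deposited values are intensity values, which the authors computed with MAS 5.0 and scaled to a target of 500 on each array (the trimmed mean was 500.002 to 500.023 here). Amplification from the 3′ end and scaling of each array can move low signals, and the number of arrays limits the precision. The values were used as deposited, with no further normalization. Probe sets were named through the platform annotation: 34958 had 1 gene symbol, 932 several and 9211 none, of 45101, and all 71 members matched a RefSeq gene identifier. A gene took the highest signal of its probe sets with 1 symbol and was called present at 1000. Shares carry exact (Clopper-Pearson) 95% intervals and differences of shares Newcombe intervals (statsmodels 0.14.6, SciPy 1.17.1, pandas 2.3.3, Python 3.11.15). Stages were compared with a limit of 30 percentage points. The labels give no animals, so no test across cells was run. The calculation was tested on simulated data. Named were every member in 10 or more cells or past 30 points, the member in the most cells of each family, pathway genes past 30 points (at most 3 per list and direction) and axis patterning genes in 5 or more cells; other members are given as counts of cells. Alternatives were limits of 500, 2000 and 5000, the 3000 highest genes per cell, 1 probe set per gene, without probe sets marked as shared, with probe sets of several symbols, without the 5 arrays set apart, without 2 cells (F1 of E16.5 and A6 of E13.5), and 40 points. The members, lists, limits and alternatives were chosen with earlier results of these data known. Promoters were RefSeq windows of GRCm38.p6.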

Additional observations from a re-analysis of the deposited data

How the results depend on the processing

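No paired analysis was possible because the labels give no replicate numbers that tie cells across stages. As reported, 55 members were present, with 11.7% of all combinations and, at the main stages, 8.83%, 13.4% and 11.8%. A limit of 500 gave shares of 19%, 11.9%, 28.8% and 15.4%, with 7 members higher (5.29% of all genes) and 1 lower (1.69%) at P0 than at E12.5, 16 higher (11.2%) and 0 lower (0.885%) at E16.5 than at E12.5, and 16 lower (10.9%) at P0 than at E16.5. It gave 90.5% of cells with a matching ligand and receptor and 37.1% of other pathway combinations. A limit of 2000 gave shares of 7.04%, 6.15%, 6.27% and 8.13%, so that E16.5 was no longer above P0, with 1 member lower (1.54% of all genes) at P0 than at E12.5, 0 higher (0.72%) at E16.5 than at E12.5, 0 lower (0.616%) at P0 than at E16.5, 54.8% of cells with a match and 22.2% of other pathway combinations. A limit of 5000 left 27 members, shares of 3.09%, 2.69%, 2.94% and 3.14%, 0 members past 30 points in each comparison apart from 1 higher at P0 than at E16.5 (2.93% of all genes), 19% of cells with a match and 13.9% of other pathway combinations. The 3000 highest genes of each cell gave 1 higher (2.97% of all genes) and 1 lower (2.61%) at P0 than at E12.5, 1 lower (2.51%) at P0 than at E16.5 and 88.1% of cells with a match. With 1 probe set per gene the share over all cells was 9.76%, that of E16.5 10.8% and that of other pathway combinations 26%. Without the 5 E16.5 arrays the E16.5 share was 9.86%, below that of P0, as was the share over all genes (12% against 18.1%), with 4 members higher (2.25% of all genes) and 2 lower (6.03%) at E16.5 than at E12.5 and 5 higher (10%) at P0 than at E16.5. Leaving out 2 cells (F1 of E16.5 and A6 of E13.5) left 3 higher (3.14% of all genes) at E16.5 than at E12.5. With 40 points, 1 was higher (1.95% of all genes) and 0 lower (0.495%) at P0 than at E16.5. In none of these settings did a named difference change sign. Counted over these settings, 46 values of these summaries moved, meaning out of their interval or, for counts, beyond 1.5 times, and 77 did not. Of the values for single families, lists, pair classes and members, 77 moved and 346 did not. The cause of the shifts was not tested. Intervals cover counting error only, the smallest stages hold 4, 2 and 1 cells, and signals near 1000 depend on the limit.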
